A study of Mus musculus with 6 samples.

Results

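Transcripts of 9 megakaryocyte and platelet genes were followed in mouse bone, with and without the miR-29cb2 cluster. The genes were chosen by name: the chemokine genes Pf4 and Ppbp, the integrin gene Itga2b, the receptor genes Gp1ba, Gp1bb, Gp9 and Gp6, the tubulin gene Tubb1 and the platelet receptor gene Treml1. All 9 were among the 54532 genes of the table. The study held 6 RNA-seq libraries from bone of female C57BL/6J mice aged 16 weeks. Of these, 3 were labelled wild type (WT) and 3 were labelled as lacking both copies of the cluster (MIR29cb2-KO, called knockout here), from which miR-29b-2 and miR-29c are made. No treatment is named for either group. Neither the skeletal site, nor the handling of marrow, nor the number of animals behind a library is stated, so the p-values cover the spread between libraries, which may be technical.

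Megakaryocytes are the large polyploid cells of the bone marrow that shed platelets. They store chemokines in alpha granules, carry receptors for von Willebrand factor, collagen and fibrinogen, and extend proplatelets along microtubules. The transcription factors GATA1, NF-E2 and members of the ETS family switch on their genes. In bulk bone RNA, a change in the number of such cells and a change in transcript per cell cannot be told apart.

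Reads were recovered from the steps in the FPKM values (read fragments relative to exon length and library size). Over the genes that gave whole reads, they summed to 16727111 to 20118034 per library. The library-size divisors recovered from the same steps were 16578350 to 20596651. WT replicate 2 and knockout replicate 1 stood apart, with FPKM totals of 489576 and 487102 against 355787 to 404994 in the other 4. Recovered reads exceeded the divisor in these libraries, 20118034 against 19514680 and 17523713 against 16578350. In the other 4 they fell short of it. The host transcript of the deleted cluster, A330023F24Rik, read 0.197, 0.153 and 0.136 FPKM in WT and 2.51, 3.25 and 4.08 in knockout replicates 1 to 3, so the groups separated at this locus. The microRNA precursor genes Mir29b-2 and Mir29c were listed at 0 in all 6 libraries and check nothing.

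The deleted microRNAs share their seed, the bases that pair with target transcripts, with the relatives miR-29a and miR-29b-1, which lie on chromosome 6 and were not deleted. The mature sequences are shown because the seed defines the site searched for in the platelet genes. They are from RefSeq (GRCm38.p6), 5′ to 3′, with the seed (bases 2 to 8) in capitals.
miR-29b-2-3p: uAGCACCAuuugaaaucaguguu
miR-29c-3p: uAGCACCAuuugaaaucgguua
miR-29a-3p: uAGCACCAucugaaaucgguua
miR-29b-1-3p: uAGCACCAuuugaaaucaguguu

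Of the 9 genes, 2 carried the matching heptamer TGGTGCT in an annotated 3′ UTR, Gp6 and Treml1. The Gp6 match lay at chr7:4368683-4368689 on the minus strand and the Treml1 match at chr17:48367066-48367072 on the plus strand (mm10). The longer octamer TGGTGCTA was absent from both. The sites are shown 5′ to 3′ on the transcript strand, with the heptamer in capitals.
Gp6 site: atgggctttctTGGTGCTcaatcaagagtt
Treml1 site: cagtcagggagTGGTGCTccgatatgattg
Among 11706 tested genes with an annotated 3′ UTR, 1897 (16.2%) held the heptamer. The platelet genes' 3′ UTRs, counted with the stop codon, were short, with a median of 263 bases against 1121.5 over tested genes. They ran from 3 bases in Tubb1, whose annotated transcript ends at the stop codon, to 4901 in Gp6. A match is a description of the sequence only.

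The promoters of all 9 genes were found in the RefSeq table and searched for motifs of the lineage's transcription factors, on both strands from 250 bases before to 50 after the start. A GATA motif (AGATAA or TGATAA) was present in 3 of the 9, Pf4, Gp1ba and Gp6. The same letters were in 18.6% of 32851 promoters and in 10.9% of 12217 promoters of tested genes. An ETS motif (AGGAAG or CGGAAG) was present in 6 of the 9, Pf4, Itga2b, Gp1ba, Gp1bb, Gp9 and Tubb1, against 46.5% and 54.5%. Both kinds occurred together in 2, Pf4 and Gp1ba, against 7.7% and 5.6%. The NF-E2 motif TGAGTCA was in 0 of the 9, against 5.2% and 3.9%. None of these motifs overlapped in the 9 promoters, and Ppbp and Treml1 held none of the 3 kinds.

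Printed here are 4 of these promoters (GRCm38.p6, 300 bases each, 5′ to 3′ on the gene's strand, motif letters in capitals on whichever strand they were found): Pf4 and Gp1ba, which held both motif kinds, Ppbp, the neighbour of Pf4 that held none, and Itga2b, which held 2 ETS motifs. The Pf4 window is chr5:90772185-90772484 (plus strand), that of Ppbp chr5:90768268-90768567 (plus), that of Gp1ba chr11:70638872-70639171 (plus) and that of Itga2b chr11:102469834-102470133 (minus).
Pf4 promoter: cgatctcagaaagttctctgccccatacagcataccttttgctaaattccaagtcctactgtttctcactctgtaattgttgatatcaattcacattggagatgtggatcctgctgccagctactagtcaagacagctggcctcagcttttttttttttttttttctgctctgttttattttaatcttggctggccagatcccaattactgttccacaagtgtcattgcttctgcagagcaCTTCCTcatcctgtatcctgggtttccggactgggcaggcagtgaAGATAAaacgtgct
Ppbp promoter: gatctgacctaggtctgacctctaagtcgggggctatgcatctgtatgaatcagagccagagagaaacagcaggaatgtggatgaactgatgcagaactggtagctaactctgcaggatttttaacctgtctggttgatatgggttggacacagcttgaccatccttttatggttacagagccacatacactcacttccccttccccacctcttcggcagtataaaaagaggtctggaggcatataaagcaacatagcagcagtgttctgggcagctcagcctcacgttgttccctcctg
Gp1ba promoter: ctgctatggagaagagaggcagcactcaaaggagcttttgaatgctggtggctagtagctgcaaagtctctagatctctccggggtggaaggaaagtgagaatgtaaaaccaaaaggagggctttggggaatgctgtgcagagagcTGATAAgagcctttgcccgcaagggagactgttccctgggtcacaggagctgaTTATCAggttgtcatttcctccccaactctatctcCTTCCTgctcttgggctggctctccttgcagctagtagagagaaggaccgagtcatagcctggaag
Itga2b promoter: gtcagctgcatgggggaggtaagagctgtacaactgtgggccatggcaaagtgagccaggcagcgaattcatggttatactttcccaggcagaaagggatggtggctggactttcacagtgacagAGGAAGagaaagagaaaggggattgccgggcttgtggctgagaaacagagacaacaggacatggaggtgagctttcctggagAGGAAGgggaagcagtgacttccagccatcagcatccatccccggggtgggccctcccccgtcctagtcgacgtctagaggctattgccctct
In Pf4 the ETS motif ran from 9 to 4 bases before the start and the GATA motif lay after it. In Gp1ba a GATA motif began 104 bases before the start, a further one, on the other strand, 51 bases before it, and the ETS motif 16 bases before it.

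The question the design poses is whether the transcript levels of these genes differed between WT and knockout bone. The 8 genes with a mean of at least 1 FPKM all averaged higher in the knockout, by 0.18 to 0.58 on the log2(FPKM + 1) scale, and none passed the test. With limma across 13619 genes and Benjamini-Hochberg adjustment, 0 of the 8 had an adjusted p under 0.05, and 0 had an unadjusted p under 0.05. With limma's voom on the recovered reads, 0 were called and 2 had an unadjusted p under 0.05. In no gene did the 3 knockout libraries lie above, or below, all 3 WT libraries. Gp1bb, the ninth gene, was below the filter and was not tested.

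These counts read against the whole table as follows. Over all tested genes, 1.34% were called higher and 3.82% lower. At an unadjusted p under 0.05, 8.91% were higher and 11.7% lower. The 3 knockout libraries lay above all WT libraries in 14.7% of genes and below them in 13.7%. A log2 change above 0 was found in 59.1% of genes, against 8 of 8 here. The median log2 change of the 8 genes was 0.40, against 0.06 over all tested genes. The size of that median moved with the WT libraries: 0.61 without WT replicate 3, 0.28 without WT replicate 2 and 0.30 without WT replicate 1. It was 0.42, 0.45 and 0.35 without knockout replicates 1, 2 and 3 in turn. When limma weighted the libraries by their spread, it was 0.06. Those weights were 3.27 for WT replicate 3 and 5.33 for knockout replicate 2 and at most 1.07 for each of the other 4, so that comparison was mainly of these 2 libraries.

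**Figure D1:**
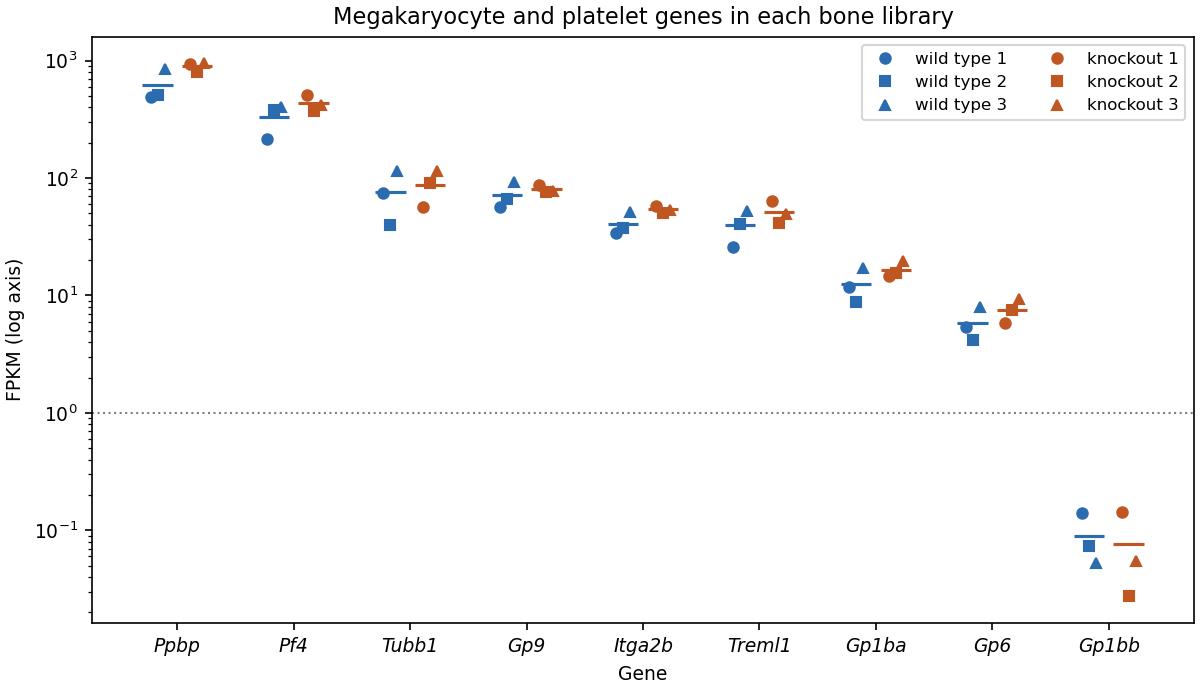
FPKM of the 9 genes in each of the 6 libraries, on a log axis, in order of mean level. Blue points are WT and orange points knockout, marker shapes give the replicate number, horizontal lines are group means and the dotted line is the filter at 1 FPKM. WT replicate 3 is the highest WT library for the 8 genes above the filter, and the groups overlap in all 9.

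The alpha-granule chemokines Ppbp and Pf4 were the most abundant of the 9. They lie 2371 bases apart on the plus strand of chromosome 5 (mm10), Ppbp (ENSMUSG00000029372) at chr5:90768518-90770063 and Pf4 (ENSMUSG00000029373) at chr5:90772435-90773383. Together they made up 77.2% to 83.5% of the summed FPKM of the 9 genes in each library. By mean FPKM among 13619 genes, Ppbp ranked 63 in WT and 42 in knockout, and Pf4 ranked 142 and 104.

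Ppbp, the precursor of the neutrophil-attracting peptide CXCL7, had an FPKM of 487, 509 and 849 in WT replicates 1 to 3. Its FPKM was 930.0, 804 and 945 in knockout replicates 1 to 3. Knockout replicates 1 and 3 lay above every WT library, while knockout replicate 2 lay below WT replicate 3. The means were 615 ± 203 and 893 ± 77.3 FPKM (SD, n = 3), a log2 difference of 0.58 ± 0.27 (SE) with a 95% interval from -0.05 to 1.22 and a limma adjusted p of 0.284. A two-sided exact permutation test gave p = 0.2, where 0.1 is the smallest that 3 against 3 libraries allow.

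Pf4, platelet factor 4 (CXCL4), read 217, 377 and 399 FPKM in WT replicates 1 to 3 and 513, 374 and 416 in knockout replicates 1 to 3. WT replicate 1 was low and knockout replicate 1 high, and the other 4 libraries lay between 374 and 416. The means were 331 ± 99.5 and 434 ± 71.7 FPKM (SD, n = 3), a log2 difference of 0.43 ± 0.28 (SE), with an interval from -0.23 to 1.09 and an adjusted p of 0.458. Without WT replicate 1 the difference was 0.15. The Pf4 level as a share of the Ppbp level was 0.552 ± 0.165 in WT and 0.485 ± 0.0591 in knockout libraries, and the groups overlapped.

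Treml1 encodes TLT-1, a receptor of alpha-granule membranes that reaches the surface on activation. The gene (ENSMUSG00000023993) lies at chr17:48359916-48367176 on the plus strand. Its FPKM was 25.8, 40.8 and 52.8 in WT and 63.5, 41.4 and 49.5 in knockout replicates 1 to 3. WT replicate 1 was again the lowest library and knockout replicate 1 the highest. The means were 39.8 ± 13.5 and 51.5 ± 11.2 FPKM (SD, n = 3), a log2 difference of 0.40 ± 0.28 (SE) with a limma adjusted p of 0.491. The difference was 0.12 without WT replicate 1, 0.24 without knockout replicate 1 and 0.63 without WT replicate 3. The ratio of Treml1 to Pf4 was the steadiest of 10 ratios computed, between 0.108 and 0.132 in all 6 libraries, although the genes lie on different chromosomes. These 10 ratios were chosen after the values were seen.

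Itga2b encodes the integrin chain αIIb (CD41), which pairs with the Itgb3 product to bind fibrinogen. The gene (ENSMUSG00000034664) lies at chr11:102453297-102470122 on the minus strand. Its FPKM was 33.9, 37.4 and 51.3 in WT and 58.2, 50.6 and 53.2 in knockout replicates 1 to 3. Knockout replicates 1 and 3 lay above all WT libraries, and knockout replicate 2 lay just under WT replicate 3. The means were 40.9 ± 9.24 and 54.0 ± 3.87 FPKM (SD, n = 3), and the log2 difference was 0.41 ± 0.18 (SE), with an interval from -0.00086 to 0.83. This gene came nearest to the threshold among the 8, with an unadjusted p of 0.0504 and an adjusted p of 0.243 in limma and an exact permutation p of 0.2.

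The partner gene Itgb3, which also serves other cells such as osteoclasts, read 58.7 ± 15.4 FPKM in WT and 74.0 ± 15.8 in knockout (SD, n = 3), a log2 difference of 0.34 with a limma adjusted p of 0.49. Leaving out 1 library moved it to between 0.17 (without WT replicate 2) and 0.54 (without WT replicate 3), with 0.20 without knockout replicate 3 and 0.51 without knockout replicate 1. The Itga2b to Itgb3 ratio was 0.706 ± 0.108 in WT and 0.760 ± 0.223 in knockout. Knockout replicate 1 held the highest ratio, 1.02, and the groups overlapped.

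The glycoprotein Ib-IX complex, the receptor for von Willebrand factor on platelets, is built from the products of Gp1ba, Gp1bb and Gp9, together with that of Gp5. Gp1ba, which encodes the ligand-binding chain (ENSMUSG00000050675, chr11:70639122-70642036, plus strand), had an FPKM of 11.8, 8.77 and 17.2 in WT replicates 1 to 3. In knockout replicates 1 to 3 its FPKM was 14.6, 15.4 and 19.6. WT replicate 2 was lowest, and 1 knockout library lay above every WT library. The means were 12.6 ± 4.28 and 16.5 ± 2.69 FPKM (SD, n = 3), a log2 difference of 0.40 ± 0.24 (SE) with a limma adjusted p of 0.404. The difference was 0.19 without WT replicate 2 and 0.64 without WT replicate 3.

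Gp9, the small chain of the complex (ENSMUSG00000030054, chr6:87778072-87779768, plus strand), read 56.9, 66.0 and 93.0 FPKM in WT and 87.1, 75.7 and 78.1 in knockout replicates 1 to 3. No knockout library exceeded WT replicate 3. Its means of 72.0 ± 18.7 and 80.3 ± 6.00 FPKM (SD, n = 3) gave the smallest log2 difference of the 8 genes, 0.18 ± 0.20 (SE), with a limma adjusted p of 0.673. Without WT replicate 1 the difference was 0.03, and without WT replicate 3 it was 0.38.

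Gp5 read 30.6 ± 8.75 FPKM in WT and 35.6 ± 2.78 in knockout (SD, n = 3), a log2 difference of 0.25 with a limma adjusted p of 0.575. It was 0.05 without WT replicate 1 and 0.45 without WT replicate 3. The ratio of Gp9 to Gp1ba was 5.93 ± 1.42 in WT and 4.96 ± 0.999 in knockout, and that of Gp5 to Gp1ba was 2.53 ± 0.746 and 2.19 ± 0.366. Both ratios overlapped between the groups and were highest in WT replicate 2.

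Gp1bb, the chain that links to the Gp1ba product, was listed far below its partners. The gene (ENSMUSG00000050761) lies at chr16:18620317-18622403 on the minus strand. It read 0.140, 0.0737 and 0.0531 FPKM in WT and 0.145, 0.0275 and 0.0554 in knockout replicates 1 to 3. These values rest on 6, 3 and 2 reads and on 5, 1 and 2 reads, so no genotype difference could be detected at this depth. Fitted by limma without the filter on low values, its log2 difference was -0.02 with an adjusted p of 0.904. Of its 2087 exon bases, 91.1% are also annotated as exon of Sept5 on the same strand and 41.5% as exon of the predicted gene Gm49601. How the authors assigned reads shared between genes is not given in the sources used here, and its part in the low value was not tested.

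Sept5, which encodes a septin of neurons and platelets (ENSMUSG00000072214, chr16:18620502-18629954), read 3.88, 5.63 and 4.59 FPKM in WT and 7.13, 5.63 and 5.70 in knockout replicates 1 to 3. Each knockout library lay above every WT library, by less than 0.01 FPKM in the closest case, with a log2 difference of 0.33 and a limma adjusted p of 0.282. Sept5 and Gm49601 are named because they share bases with Gp1bb.

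Gp6 encodes the collagen receptor glycoprotein VI, which signals through the Fc receptor gamma chain encoded by Fcer1g. The gene (ENSMUSG00000078810) lies at chr7:4363965-4397744 on the minus strand and has the longest exon total of the 9, 5900 bases. It read 5.35, 4.18 and 7.93 FPKM in WT and 5.82, 7.54 and 9.33 in knockout replicates 1 to 3. Knockout replicate 3 alone lay above all WT libraries. The means were 5.82 ± 1.92 and 7.56 ± 1.76 FPKM (SD, n = 3), a log2 difference of 0.35 ± 0.24 (SE) with a limma adjusted p of 0.481. It was 0.17 without WT replicate 2, 0.20 without knockout replicate 3 and 0.56 without WT replicate 3.

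Fcer1g, which many myeloid cells also express, read 250.4 ± 89.0 FPKM in WT and 273 ± 46.3 in knockout (SD, n = 3), a log2 difference of 0.17 with a limma adjusted p of 0.794. Its direction turned without WT replicate 1, to -0.06, and the difference was 0.44 without WT replicate 2 and 0.04 without knockout replicate 1. The 2 genes with a miR-29 seed match, Gp6 and Treml1, had differences of 0.35 and 0.40. The 6 tested genes without one had differences of 0.18 to 0.58. The part of the seed matches in these differences was not tested.

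Tubb1 encodes beta1-tubulin, the main beta-tubulin of the platelet's microtubule coil. The gene (ENSMUSG00000016255) lies at chr2:174450695-174457882 on the plus strand. It read 74.0, 39.5 and 115 FPKM in WT and 56.9, 90.1 and 115 in knockout replicates 1 to 3. The lowest library of each genotype was one of the pair that stood apart, and the highest libraries of the 2 genotypes were nearly equal. The means were 76.0 ± 37.6 and 87.4 ± 29.3 FPKM (SD, n = 3), a log2 difference of 0.27 ± 0.41 (SE), with an interval from -0.71 to 1.25 and a limma adjusted p of 0.777. The direction turned without WT replicate 2, to -0.13. Leaving out knockout replicate 3 gave 0.04 and leaving out knockout replicate 1 gave 0.55, while 0.62 was found without WT replicate 3.

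**Figure D2:**
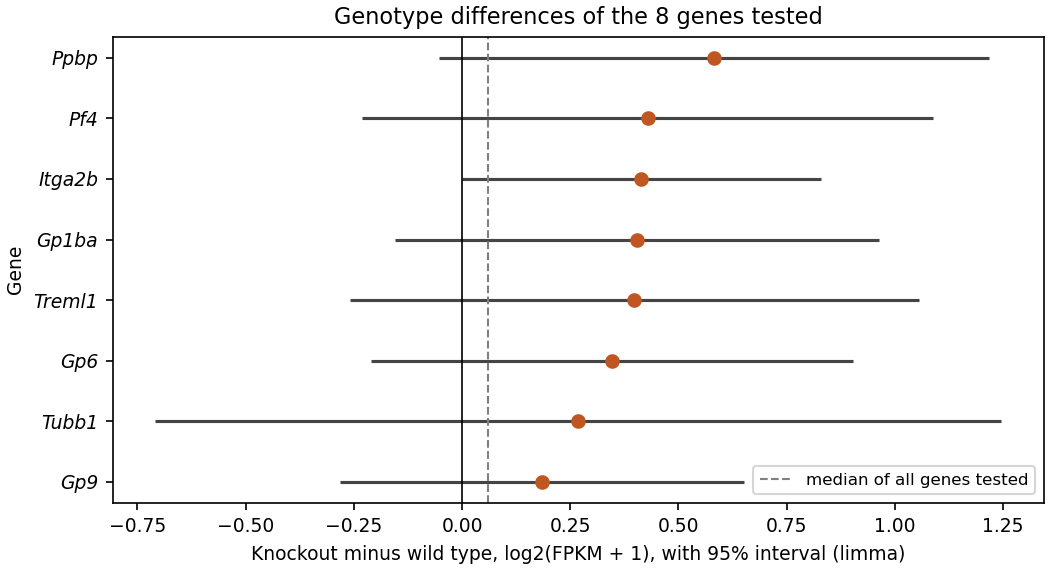
Log2(FPKM + 1) difference, knockout minus WT, for the 8 tested genes (points) with 95% intervals from limma (bars). The solid line is 0 and the dashed line the median of all genes tested, 0.06. Points lie between 0.18 and 0.58, and every interval includes 0.

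Mean FPKM spanned a factor of 113 from Gp6 to Ppbp over the 6 libraries, a comparison of levels per exon length. After Ppbp and Pf4 came Tubb1 and Gp9, then Itga2b and Treml1, then Gp1ba and Gp6. Within each of the pairs Tubb1 and Gp9, and Itga2b and Treml1, the difference between the means was smaller than the SD of the WT libraries. Counting error was small beside the spread, since each of the 8 genes had 465 to 17716 reads in a library.

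The spread within WT bone was shared in part by the genes. WT replicate 3 was the highest WT library for 8 of 8, and the lowest was WT replicate 1 for 5 and WT replicate 2 for 3. In the lists described below, it was also the highest for 10 of 12 cytoskeletal, 7 of 8 cell-cycle and 8 of 11 erythroid genes. For neutrophil-lineage markers the count was 3 of 10, and for osteoblast markers 0 of 8. The share over all tested genes was not computed. Averaged over the 8, the deviation from each gene's own mean was -0.43, -0.40 and 0.27 on the log2 scale in WT replicates 1 to 3. The same average was 0.17, 0.09 and 0.31 in knockout replicates 1 to 3. WT replicate 3 thus lay within the range of the knockout libraries, and WT replicates 1 and 2 below it. Taken gene by gene, the knockout mean lay within 0.2 of WT replicate 3 in 6 of the 8, from -0.44 for Tubb1 to 0.11 for Pf4.

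The WT libraries also differed in markers of other bone cells. WT replicate 3 had the lowest summed FPKM of the 3 WT libraries for osteoblast markers (1620 against 2203 and 3006), skeletal muscle markers (2765 against 3359 and 5063), adipocyte markers (487 against 624 and 753) and endothelial markers (91.6 against 103 and 111), though not for chondrocyte markers (182 against 169.9 and 249). The part of these differences in the platelet gene levels was not tested.

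The pair of libraries that stood apart did not move the 8 genes alike. Against the mean of the other WT libraries, WT replicate 2 was lower by 1.20 for Tubb1, 0.64 for Gp1ba and 0.54 for Gp6 (log2 differences of -1.20, -0.64 and -0.54) and higher by 0.36 for Pf4. Against the other knockout libraries, knockout replicate 1 was at -0.83 for Tubb1, -0.46 for Gp6 and -0.24 for Gp1ba, and at 0.38 for Pf4 and 0.48 for Treml1. Tubb1 and Treml1 have nearly the same exon length, 1406 and 1402 bases, and lay on opposite sides in both libraries. The shortest gene, Pf4 (721 bases), was higher in both, and the longest, Gp6 (5900 bases), was lower in both. The part of exon length in this pattern was not tested. With both libraries left out, 8 of 8 differences stayed above 0, from 0.08 for Gp9 to 0.44 for Ppbp, with 0 called by limma.

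**Figure D3:**
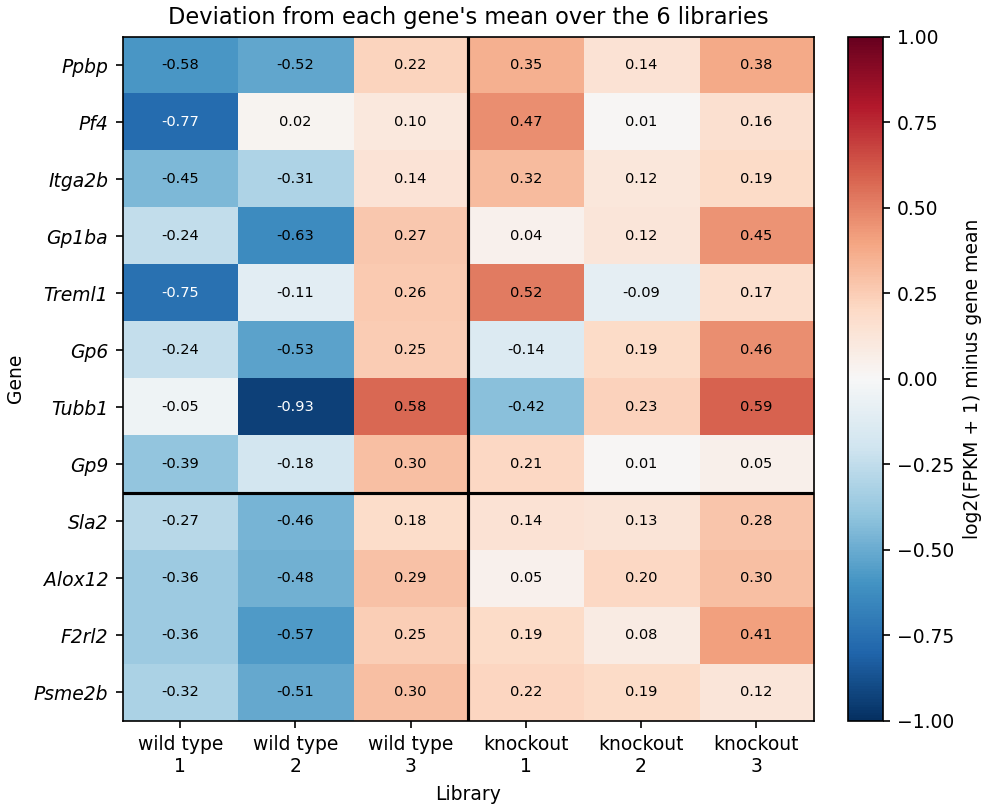
Deviation of log2(FPKM + 1) from each gene's mean over the 6 libraries, for the 8 tested platelet genes (above the line) and 4 of the 5 genes with the most similar pattern (below it). Red is above and blue below the gene's mean, with the value in each cell. WT replicates 1 and 2 are mostly blue and WT replicate 3 is red in all 12 genes.

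The genes whose pattern was most like the mean of the 8 were ranked by the root mean square difference of centred log2 values over the 6 libraries, among 11660 named genes. Of the 5 nearest, 4 are given here, against a median of 0.338 over all ranked genes. Sla2, an adaptor that dampens lymphocyte receptor signals, lay at 0.0810. Alox12, the platelet 12-lipoxygenase, followed at 0.0819, F2rl2, the thrombin receptor PAR3 of mouse platelets, at 0.0870, and Psme2b, a copy of a proteasome activator gene, at 0.112. The 8 genes themselves lay at 0.101 to 0.404. Of the 50 nearest genes, 10 belonged to the 94 tested genes of the platelet and megakaryocyte lists described next. Likeness over 6 libraries is a description.

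Further genes of the lineage, 96 in 9 lists, were examined, of which 94 were tested. By limma, 2 were called higher in the knockout, 2 lower and 90 were not called, against 1.34% and 3.82% over all genes. At an unadjusted p under 0.05, 19 were higher and 5 lower, against 8.91% and 11.7%. All 3 knockout libraries lay above all WT libraries in 19 and below in 10, against 14.7% and 13.7%. A log2 change above 0 was seen in 73 of the 94, against 59.1%, and the median was 0.19.

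Alpha-granule genes other than Pf4, Ppbp and Treml1 had a median log2 change of 0.27, with 1 of 11 called higher. That was F13a1, which encodes the A subunit of coagulation factor XIII and is also made by macrophages. It read 31.9, 27.2 and 31.8 FPKM in WT and 57.3, 70.4 and 62.8 in knockout replicates 1 to 3, so the groups were well apart. The log2 difference was 1.04 ± 0.13 (SE, n = 3) with a limma adjusted p of 0.0148. The call was lost without WT replicate 1 or knockout replicate 2, with an adjusted p of up to 0.0717. Macrophage markers had a median change of -0.12, with 2 of 6 above 0. Csf1r was called lower, at 36.4 ± 2.65 and 22.3 ± 1.30 FPKM (SD, n = 3). Cd163, a scavenger receptor gene named after its values were seen, read 7.36 ± 2.02 and 14.4 ± 1.93 FPKM, without overlap, a log2 difference of 0.91 with a limma adjusted p of 0.0552. The part of macrophages in the F13a1 result was not tested.

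Dense-granule genes had 0 of 8 called and a median of 0.26. The smallest p was that of Slc35d3, a transporter needed for dense granules, at 3.93 ± 1.56 FPKM in WT and 6.25 ± 1.09 in knockout (SD, n = 3), with a limma adjusted p of 0.211. Among platelet signalling genes 1 of 14 was called higher, with a median of 0.23. That was Pla2g4a, which encodes the phospholipase that frees arachidonic acid for thromboxane. It rose from 4.44 ± 0.585 to 7.37 ± 0.389 FPKM (SD, n = 3), a log2 difference of 0.63 with a limma adjusted p of 0.0359. Leaving out any 1 of the 6 libraries ended that call, with adjusted p-values of 0.0651 to 0.126.

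Receptors for soluble agonists such as thrombin and ADP had 0 of 8 called, all 8 changes above 0 and a median of 0.40. The ADP receptor gene P2ry1 had the smallest p. It read 5.75, 7.21 and 8.24 FPKM in WT and 8.66, 9.77 and 9.78 in knockout replicates 1 to 3, groups that did not overlap, with a limma adjusted p of 0.192. Other adhesion receptors had 0 of 12 called and a median of 0.12. Their smallest p was that of the junctional adhesion gene Jam3, at 1.76 FPKM in WT and 0.867 in knockout, with a log2 difference of -0.56 and a limma adjusted p of 0.0748. In 3 of the 12 the knockout libraries lay below all WT libraries, and in 0 above them, against 13.7% and 14.7% of all tested genes. Endothelial markers had a median change of -0.55, and the part of endothelium in the Jam3 value was not tested.

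Among cytoskeletal genes 1 of 12 was called lower, with a median of 0.22. That was Tpm1, a tropomyosin gene also high in muscle, which fell by 1.29 on the log2 scale, from 270.3 ± 91.6 to 107 ± 16.5 FPKM (SD, n = 3), with a limma adjusted p of 0.0392. With 1 library left out, the call held in 1 of 6 cases, without WT replicate 3, and the adjusted p rose to as much as 0.153. Skeletal muscle markers had a median change of -1.16 in the same libraries, with 2 of 6 called lower, Casq1 and Ckm. Their summed FPKM was 2765 to 5063 in WT and 1379 to 2182 in knockout libraries. Their part in the Tpm1 result was not tested.

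Transcription factors of megakaryocytes had 1 of 14 called, lower, and a median of 0.08. Mef2c, which also acts in muscle, bone and lymphoid cells, fell by 0.79 on the log2 scale, from 9.77 ± 1.32 to 5.27 ± 1.16 FPKM (SD, n = 3), with a limma adjusted p of 0.0474. That call too ended when any 1 library was left out, with adjusted p-values of 0.0599 to 0.151. Gata1 read 55.1 ± 11.5 and 55.5 ± 10.0 FPKM (SD, n = 3), a log2 difference of 0.02 with a limma adjusted p of 0.974, which turned to -0.16 without WT replicate 1 and -0.12 without knockout replicate 1 and was 0.08 to 0.14 without each of the other 4 libraries. Nfe2, which drives platelet release, read 93.2 ± 15.0 and 99.4 ± 10.3 FPKM, a log2 difference of 0.10 with a limma adjusted p of 0.800. It turned to -0.04 without WT replicate 1 and was 0.02 without knockout replicate 1, 0.17 without WT replicate 2 and 0.17 without WT replicate 3. In bulk bone, the cells behind the Gata1 and Nfe2 reads were not determined.

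The thrombopoietin axis had 0 of 7 called and a median of 0.08, and the gene for thrombopoietin itself, Thpo, was below the filter. Cxcl12, a marrow chemokine that guides megakaryocytes to vessels, had the smallest p, at 187 ± 21.3 and 149 ± 8.88 FPKM (SD, n = 3), with a limma adjusted p of 0.302.

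Endomitosis and cell-cycle genes had 0 of 8 called and a median of 0.17. Ccne1, a cyclin gene used in endoreplication, had the smallest p, with 34.0 ± 3.23 and 28.3 ± 2.34 FPKM (SD, n = 3) and a limma adjusted p of 0.318. Vwf, made by megakaryocytes and endothelium alike, read 8.41 ± 3.17 and 10.2 ± 2.89 FPKM, a log2 difference of 0.27 with a limma adjusted p of 0.681. It was 0.01 without WT replicate 2, 0.10 without knockout replicate 3, 0.51 without WT replicate 3 and 0.49 without knockout replicate 1. Endothelial markers had a median change of -0.55 and 2 of 8 called lower, Kdr and Cdh5.

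**Figure D4:**
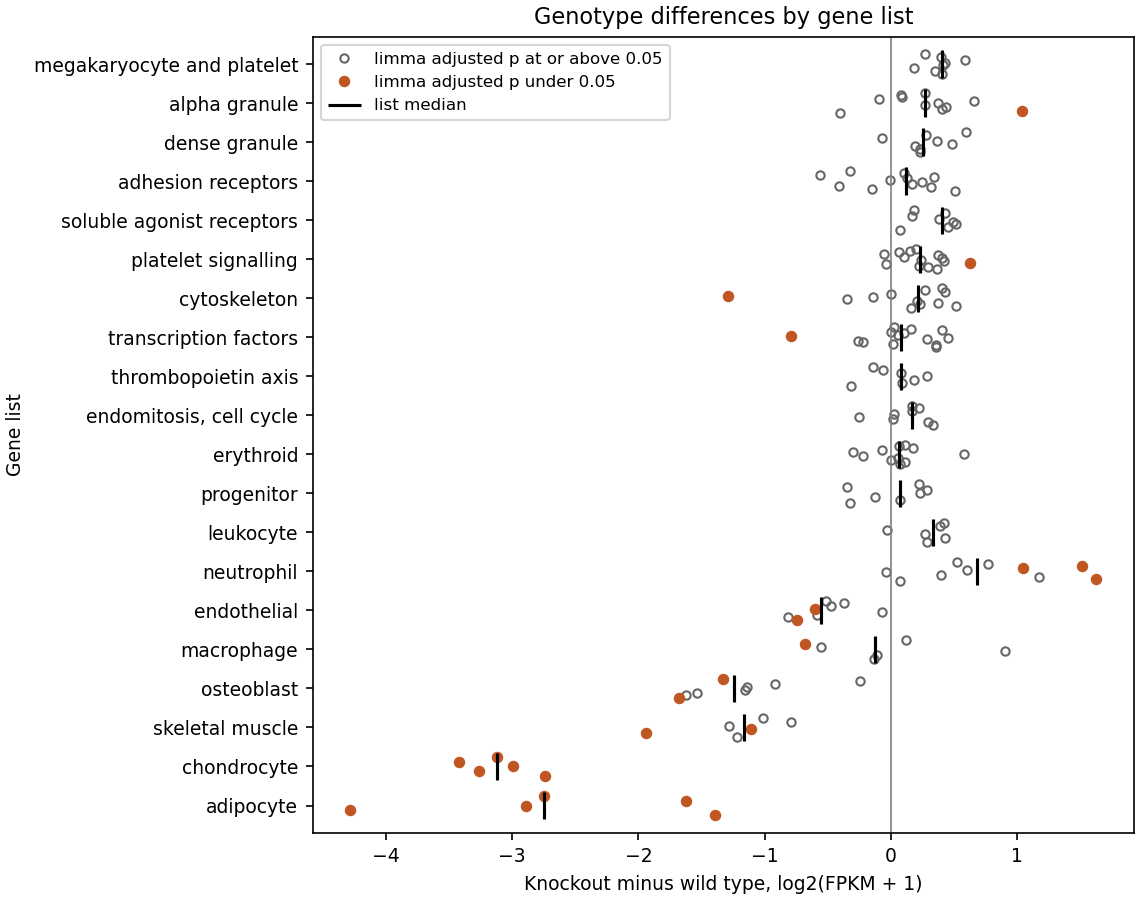
Log2(FPKM + 1) difference, knockout minus WT, for each tested gene of the 9 platelet and megakaryocyte genes, 9 further lists of the lineage and 10 lists of other cells. Filled points have a limma adjusted p under 0.05, open points do not, and vertical bars are list medians. The first row holds 8 open points with a median of 0.40.

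Other marrow cells gave different medians. Erythroid markers had 0 of 11 called and a median of 0.06, with the smallest p for the Rh glycoprotein gene Rhag at a limma adjusted p of 0.624. Blood progenitor markers had 0 of 7 called and a median of 0.07. Among them Cd34 had the smallest p, with a log2 difference of -0.33 and a limma adjusted p of 0.276. Endothelial markers had a median of -0.55, and the part of endothelium in the Cd34 value was not tested. Leukocyte markers had 0 of 6 called and a median of 0.34. The 3 knockout libraries lay above all WT libraries in 5 of the 6, against 14.7% of all tested genes. Of them Ptprc (CD45) read 19.4, 16.3 and 20.4 FPKM in WT and 20.99, 26.5 and 26.9 in knockout replicates 1 to 3, without overlap, at a limma adjusted p of 0.194. Neutrophil-lineage markers had 3 of 10 called higher, the granule protease and peroxidase genes Ctsg, Mpo and Prtn3, and a median of 0.68. The knockout libraries lay above all WT libraries in 7 of the 10. Leaving out 1 library kept the Ctsg call in 5 of 6 cases (not without WT replicate 1), the Prtn3 call in 1 (without WT replicate 2) and the Mpo call in 0.

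Osteoblast, chondrocyte and adipocyte markers had median changes below 0. These were -1.25 for osteoblasts (2 of 8 called, Alpl and Sp7), -3.12 for chondrocytes (5 of 5 called) and -2.75 for adipocytes (5 of 5 called). Without WT replicate 1, 3 chondrocyte and 2 adipocyte markers were called, and without knockout replicate 2, 3 adipocyte markers were called. With both libraries that stood apart left out, 3 chondrocyte markers were called. Calls of Csf1r, Kdr and Ckm were lost when any 1 library was left out, while those of Cdh5, Alpl and Sp7 held in 1 of 6 cases each and that of Casq1 in 3. The summed FPKM of osteoblast markers was 1620 to 3006 in WT and 685 to 1455 in knockout libraries. No osteoblast marker was at 0 in any library. The part of such shifts in the platelet gene differences was not tested.

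Platelet genes were also set against the leukocyte marker Ptprc in the same library, and Itga2b against the transcription factor gene Gata1. Erythroid markers summed to 27728 to 57664 FPKM in these libraries, and the cells behind the Gata1 reads were not determined. The ratio of Itga2b to Ptprc was 2.19 ± 0.392 in WT and 2.22 ± 0.480 in knockout (SD, n = 3), and that of Pf4 to Ptprc was 17.94 ± 6.12 and 18.001 ± 5.63. Ppbp to Ptprc gave 32.6 ± 8.26 and 36.6 ± 7.08. These 3 ratios overlapped between the groups. The ratio of Itga2b to Gata1 was 0.803, 0.634 and 0.801 in WT and 0.869, 1.02 and 1.07 in knockout replicates 1 to 3. This was the 1 of the 10 ratios in which the groups did not overlap. All 10 were chosen after the values were seen. Over all tested genes, the 3 knockout libraries lay above all WT libraries in 14.7% and below them in 13.7%.

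**Figure D5:**
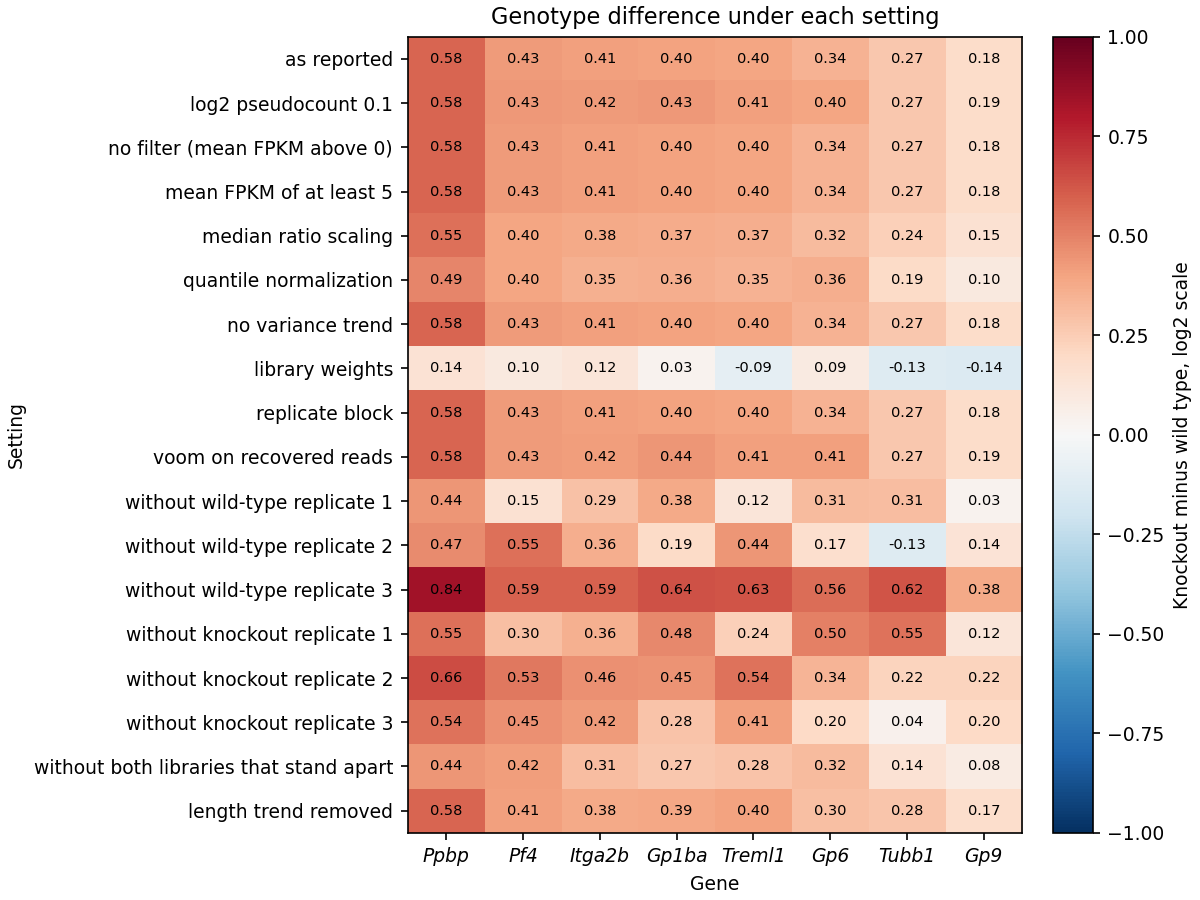
Log2 difference, knockout minus WT, of the 8 tested genes (columns) as reported and under 17 other settings (rows), with the value in each cell and red for higher in the knockout. Of the cells, 4 are negative: Treml1, Tubb1 and Gp9 with library weights, and Tubb1 without WT replicate 2.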

How the data were processed

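Bone RNA of 3 WT and 3 miR-29cb2 knockout libraries was flash frozen, extracted with Trizol and built into TruSeq libraries, per the labels' protocols. The authors deposited 1 table of FPKM values for 54532 genes and 6 libraries. Bowtie 0.12.2 and mm10 were used, per the submitters' processing notes. Nothing on the counting tool, annotation, strand or FPKM divisor is given in the sources used here. Groups came from the sample titles.

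Identifiers were matched to GENCODE M21, with 54495 found and 37 not. FPKM times exon length gave whole reads (tolerance 0.01) for 96.9% of 29600 genes above 0, all 9 platelet genes included. Statements on reads cover only counting error. The scale used was log2(FPKM + 1), which understates changes of low genes, with limma 3.58.1 in R 4.3.3 (variance trend). The test took the 13619 genes averaging 1 FPKM or more, with Benjamini-Hochberg adjustment over all of them and a threshold of 0.05. Single genes were also compared by two-sided exact permutation. Alternatives covered the pseudocount, filter, scaling, variance model, library weights, block, voom on recovered reads, exon length and leaving out libraries.

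The members and gene lists were chosen with earlier results of these data known. Named are the 9 genes, up to 3 called genes per list or else the smallest p, the 5 genes nearest in pattern, and Itgb3, Gp5, Fcer1g, Gata1, Nfe2 and Vwf. A330023F24Rik, Sept5, Gm49601, Thpo and Cd163 are named outside that rule. A gene that the rule names is not reported here. The genes of fully called lists are given as counts. Promoter and microRNA sequences are from RefSeq (GRCm38.p6). Promoters on chromosome 18 were left out of the background, and target sites were read from mm10. Figures were drawn with matplotlib 3.10.9.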

Additional observations from a re-analysis of the deposited data

How the results depend on the processing

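No platelet gene passed the threshold under any of the 17 other settings, and the smallest adjusted p was 0.0996, for Itga2b without WT replicate 3. At an unadjusted p under 0.05, limma found 4 of the 8 without WT replicate 3, 2 without the variance trend and 1 without a filter. Directions turned for Gp9 (-0.13), Tubb1 (-0.13) and Treml1 (-0.0937) with library weights, and for Tubb1 without WT replicate 2 (-0.13). The median of the 8 was 0.0612 with library weights and 0.28 to 0.61 when 1 library was left out, and the change of Tubb1 ran from -0.13 to 0.625.

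The count over all genes, 703, was 143 without a filter, 365 at a mean FPKM of at least 5, 3354 with library weights, 239 without both libraries that stood apart, 1216 with the length trend removed and 62 to 418 when 1 library was left out. The count over the 9 further lineage lists, 4, was 1 without a filter, 22 with library weights, 1 without both libraries, 7 with the length trend removed and 0 to 2 when 1 library was left out. The causes were not tested. Leaving out libraries leaves fewer samples, and the weights favour 2 libraries.

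Replicate numbers did not pair the samples: deviations of same-numbered libraries correlated at -0.49, -0.27 and 0.16 across genes. With the replicate block, 127 genes, 0 of the lineage lists and 0 of the 8 platelet genes were called. Gp1bb, with 1 to 6 reads a library, could be fitted only without a filter, at a log2 change of -0.018 and an adjusted p of 0.904.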
